A study of Drosophila melanogaster with 13 samples.

Results

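In Drosophila melanogaster testes, 206 genes known in the array annotation by a CG number alone stood lower than WT in testes mutant for aly, for sa and for magn. They were chosen from measured values, as genes with a CG-number symbol, a WT mean of at least 6 on the log2 scale, and a mean at least 2.5 log2 units below WT in each of the 3 mutants. Each gene was read through the probe set with the highest mean over 13 arrays. They are 7.30% of the 2820 CG-number genes with that WT mean, and come from 11982 genes with a value. By the same thresholds 75 of 3863 genes with other symbols were low in all 3 mutants, or 1.94%. A further 413 CG-number genes passed the thresholds in aly and sa but not in magn. They are part of the 2614 other CG-number genes with that WT mean, which serve below as a reference set. All 206 genes passed the filter on low values used for the tests, a log2 value above 4 in at least 3 arrays. For 205 of them the WT arrays alone were enough, as all lay above 4. CG15021 passed only with the help of a mutant array.

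Whole testes of adults 0 to 1 day old, raised at 25 °C and dissected away from seminal vesicles and accessory glands, were measured on 13 arrays. The aly group, genotype aly[2]/aly[5p], and the sa group, genotype sa[1]/sa[2], had 3 arrays each. The magn group had 4 arrays, 2 of them for each of the allele combinations magn[12c]/magn[23b] and magn[12c]/magn[12c];pSC2, where pSC2 is an element that the labels do not describe. The control group of 3 arrays, called WT, was a marked strain whose genotype label reads red[1], e[1] and whose titles read red[1]/e[1], so the WT flies themselves carry mutations in red and e. The labels call the replicates biological without saying whether they came from separate crosses, so p-values measure the spread between these samples. Except where the magn combinations are compared or used alone, their 4 arrays count as 1 group. The spread behind those p-values, and the SD of the 4 magn arrays, thus include the difference between the combinations.

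Spermatogenesis in the fly testis runs from stem cells through dividing spermatogonia to primary spermatocytes, which grow for days, transcribe most genes needed for sperm, enter meiosis and become spermatids. The gene aly (always early) encodes a subunit of tMAC, a testis complex that activates spermatocyte transcription, and sa (spermatocyte arrest) encodes a testis-specific TBP-associated factor. Testes without either gene stop at the mature primary spermatocyte. The magn alleles lie in Ubi-p63E, which encodes a chain of ubiquitin units that is cut into single ubiquitins, and males without it also fail to pass through meiosis. A CG number is the name given to a predicted gene until it is characterised.

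The mutated genes and marker lists described the arrays as a whole. Ubi-p63E lay between 14.65 and 14.90 in WT and between 3.59 and 5.47 in magn, and sa between 5.84 and 6.25 in the sa arrays against 10.80 to 11.13 in WT. The aly gene lay between 7.23 and 7.34 in aly and between 5.95 and 6.28 in WT, so its level did not mark the mutant. Array medians of 10 early germline markers ran from 4.75 to 5.56 in WT, from 8.10 to 8.36 in aly, from 7.68 to 8.34 in sa and from 6.30 to 7.37 in magn. Only 7 of these markers passed the filter and were tested. Against WT, 5 were called higher and 1 lower, AGO3, in aly, 5 and 0 in sa, and 4 and 0 in magn. Array medians of 19 spermatocyte markers ran from 8.48 to 8.77 in WT and from 9.62 to 10.61 in the mutants, but the list was split. Of 18 tested, 12 were called higher and 6 lower than WT in aly, 8 and 6 in sa, and 8 and 1 in magn. Over all genes tested the shares were 45.5% higher and 24.3% lower in aly, 40.7% and 21.3% in sa, and 29.2% and 14.3% in magn. The meiotic regulator bol had means of 13.15 in WT, 8.63 in aly, 11.67 in sa and 12.70 in magn. Others on the list differed from it in sa. In the same order of groups, twe had means of 7.31, 5.49, 7.31 and 7.08, and CycB 7.71, 4.44, 9.80 and 7.41. All groups also carried accessory gland transcripts, although the glands were removed: medians of 17 such genes ran from 8.38 in an aly array to 13.90 in WT replicate 2. None of the 206 genes is among 32 measured CG-number genes of the seminal fluid, and the other marker lists hold no CG-number symbols.

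The falls below WT, which the rule fixed, were deepest in aly. The median over the 206 genes was 11.35 in WT, 2.87 in aly, 6.31 in sa and 7.42 in magn, on a log2 scale whose floor is 2.102 and on which values up to 4 are treated here as background. The median change was -7.93 in aly, -4.62 in sa and -3.73 in magn, where the medians over all 8719 genes tested were 0.77, 0.66 and 0.38. All 206 genes are called lower in each mutant by the criteria used below, against 24.3% of all tested genes in aly, 21.3% in sa and 14.3% in magn, a count that the rule imposed. In whole testes, fewer cells of a type and less RNA per cell cannot be told apart.

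Lost is too strong a word for many of the genes. Every array lay at or below 4 for 151 genes in aly, for 40 in sa and for 21 in magn, and 13 genes were at background in every mutant array. At the other end, 34 genes stayed above 4 in every mutant array. The mutant means took the order aly, sa, magn from low to high in 129 genes, aly, magn, sa in 42, and magn, sa, aly in 17. The lowest WT array lay above the highest mutant array in 205 of the 206 genes, a separation that the rule nearly imposes, and in 14.5% of all genes tested. The exception was CG15021, which read 6.23, 9.26 and 3.39 in the WT arrays and between 2.85 and 4.41 in the mutants.

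**Figure D1:**
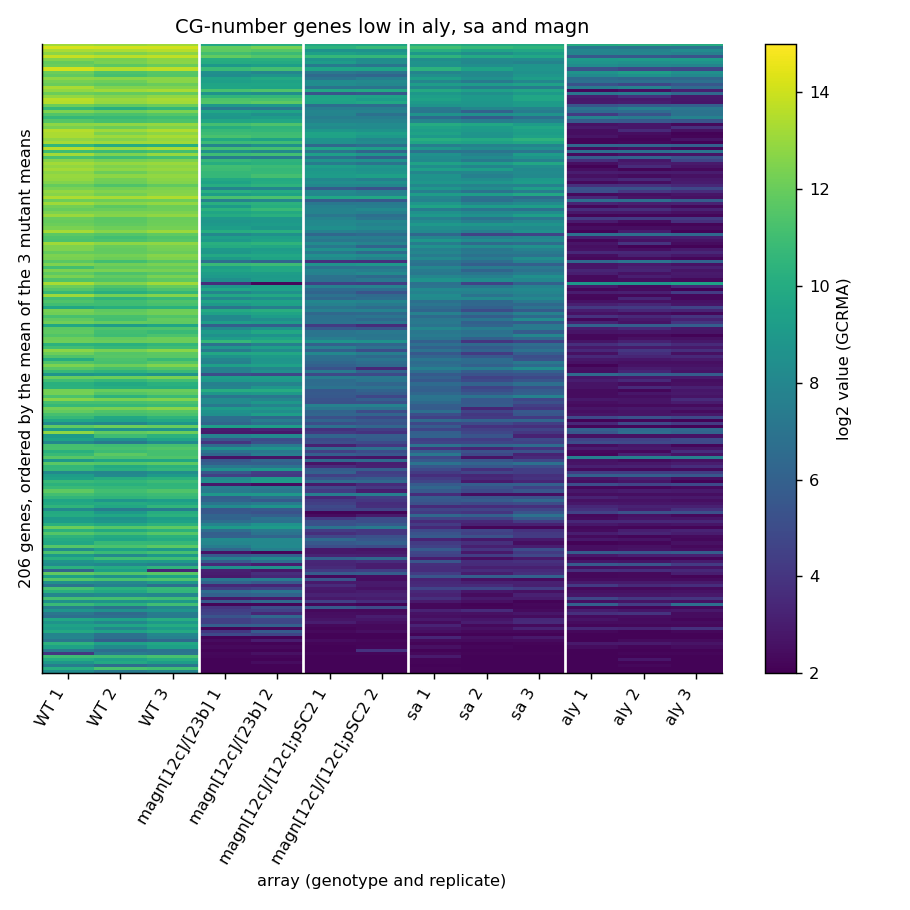
Log2 value of each of the 206 genes (rows, ordered by the mean of the 3 mutant means) in each of 13 arrays (columns, named by genotype and replicate). The WT columns are bright in nearly all rows, the aly columns are dark for most rows, and sa and magn lie between, with medians of 6.31 and 7.42 against 2.87 in aly.

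Genes with the brightest WT signal are given first, although levels of different probe sets do not rank transcripts by abundance. CG31542 had the highest WT mean, 14.16 ± 0.05 (log2, SD, n = 3). Its arrays read 7.22, 6.99 and 7.004 in aly, 11.07, 10.70 and 10.47 in sa, 11.91 and 12.34 in magn[12c]/magn[23b], and 10.40 and 10.75 in magn[12c]/magn[12c];pSC2. No group reached background, and the groups followed each other without overlap except that sa lay among the pSC2 arrays. CG31275 and CG32945 followed at WT means of 13.76 ± 0.30 and 13.77 ± 0.09, and CG8508 at 13.45 ± 0.14 (n = 3 each), and all of these stayed above 4 in every mutant array. By contrast CG31244, CG13891, CG13838 and CG14391, with WT means of 13.30 to 13.38, lay at or below 3.57 in every aly array, at least 632-fold below WT. The same 4 genes kept means of 7.08 to 9.39 in sa and 9.71 to 10.52 in magn.

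The genes with the deepest fall common to all mutants were at background almost everywhere outside WT. In WT CG13675 read 10.09, 11.21 and 10.998, and no mutant array exceeded 2.18, at least 109-fold lower in each mutant. CG5478 read 10.91, 10.91 and 11.23 in WT, and its highest mutant array read 2.96, at least 129-fold lower. CG31296 (WT 9.84 ± 0.35), CG14635 (9.84 ± 0.46), CG31797 (9.33 ± 0.49) and CG4563 (9.01 ± 0.69; n = 3 each) likewise had no mutant array above 2.92. CG4563 encodes a protein of the acyl-CoA synthetase family. CG32457 kept a trace in aly, at 4.78, 4.13 and 3.99, and CG3528 kept one in magn[12c]/magn[12c];pSC2, at 5.72 and 5.85, with WT means of 11.08 ± 0.09 and 11.63 ± 0.20 (n = 3). How far such genes fell is a lower bound, because the mutant values are background.

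Genes next to the thresholds show how the choice divided a continuum. Just inside by the size of the fall were CG7423, whose smallest change was -2.501 in sa, and CG13239, CG9483, CG33333 and CG14676, with changes of -2.504 to -2.519 in magn. Just outside were CG11251, CG5781 and CG5693, at -2.498, -2.48 and -2.47 in magn, CG12111 at -2.48 in aly, and CG32263 at -2.46 in sa. The dimmest genes inside by WT level were CG30484 at 6.20 and CG15021 at 6.29, and just outside were CG12645 at 5.89 and CG31897 at 5.73.

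Between aly and sa, most of the genes differed, and nearly all of those were lower in aly. A gene was called where limma's adjusted p was under 0.05, the difference at least 2-fold and not every array of both groups at background. By this test 133 of the 206 genes differed, 123 lower and 10 higher in aly, with a median difference of -2.35. Over all genes tested 39.3% were called, 20.7% lower and 18.6% higher, with a median of 0.05. Both groups were at background for 35 of the 206, which therefore have no order. The 413 genes that kept magn nearer to WT had more calls on the same side, with 85.7% lower in aly and a median of -4.50.

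CG13539 had the largest difference. It read 2.19, 2.19 and 2.66 in aly and 10.15, 9.95 and 10.42 in sa, at least 72.1-fold lower in aly (log2 difference -7.82, SE 0.39, adjusted p = 4.87e-10, limma). WT stood at 12.54 to 12.91, so sa kept a high level of this transcript where aly had none above background. CG13725 was at 2.12 to 2.27 in aly and 9.47 to 9.76 in sa, and CG16957 at 2.35 to 2.80 and 9.19 to 9.99, each at least 49.6-fold lower in aly. CG31802, a member of the centrin family of calcium-binding proteins found at centrioles, was at 2.29 to 3.15 in aly and 9.42 to 9.88 in sa, at least 50.5-fold lower. CG12035 and CG30334 completed the set with sa means of 9.34 ± 0.17 and 9.45 ± 0.31 and aly means of 2.38 ± 0.16 and 2.52 ± 0.19 (SD, n = 3 each).

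**Figure D2:**
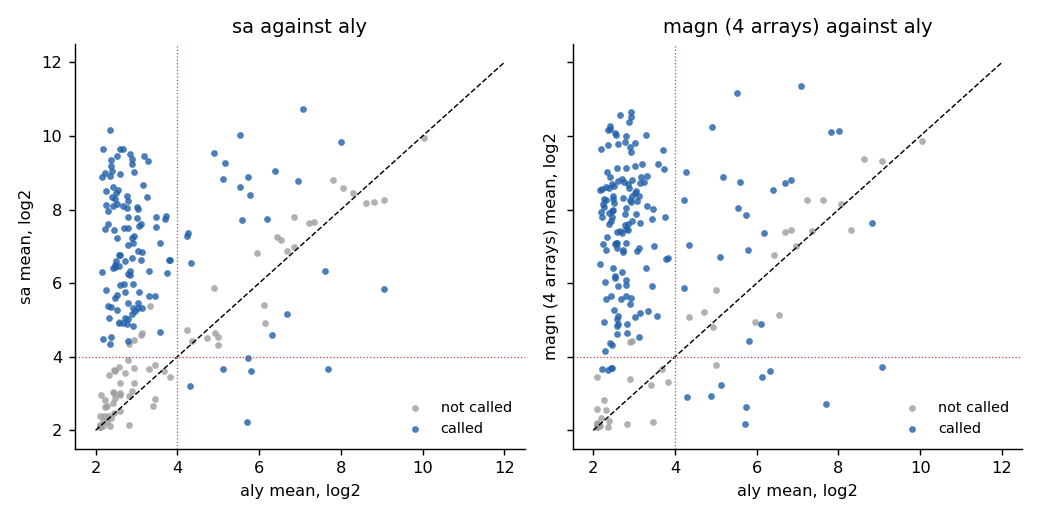
Mean log2 value of the 206 genes in sa (left) and in the 4 magn arrays (right) against the mean in aly, 1 point per gene, blue where called different, with dotted lines at the background of 4 and a dashed line of equality. Most points stand in a column at the aly background and spread upward, and a few blue points lie below equality, higher in aly.

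Between magn and aly the difference was wider and again one-sided. The test called 166 of the 206 genes, 154 higher and 12 lower in magn, with a median difference of 3.69. Of all tested genes 59.1% were called, 25.8% higher and 33.3% lower, with a median of -0.32. The same side prevailed in the sets most like the 206. Among the 413 genes 97.3% were higher and 0% lower in magn, with a median of 7.27. Their choice fixed that side, as they passed the threshold in aly and not in magn, so nothing is read from it. Among the 75 genes with other symbols past the thresholds 62.7% were higher and 1.33% lower. CG31802 read 11.22 and 11.40 in magn[12c]/magn[23b] and 9.78 and 9.87 in magn[12c]/magn[12c];pSC2, at least 94.9-fold above aly (log2 difference 7.91, SE 0.38, adjusted p = 1.68e-10, limma). CG14391 was at least 77.1-fold and CG13581 at least 101-fold higher in magn than in aly. For CG13581 the magn arrays lay between 9.56 and 11.80 and the aly arrays between 2.79 and 3.04. CG31244, CG17944 and CG30056 were also among the 6 largest, with magn means of 10.52 ± 0.90, 10.20 ± 1.10 and 10.17 ± 0.84 (SD, n = 4). In all of these genes the magn arrays were below WT and far above aly, with no overlap between groups.

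A small set ran the other way and kept its highest mutant level in aly. CG12506 read 8.89, 8.83 and 9.48 in aly, 6.86, 4.59 and 6.04 in sa, 3.69 and 2.29 in magn[12c]/magn[23b], and 4.52 and 4.42 in magn[12c]/magn[12c];pSC2, below 12.56 to 13.30 in WT. Aly, sa and magn did not overlap for this gene, and it was called higher in aly than in sa (log2 difference 3.24, SE 0.59, adjusted p = 3.66e-04, limma) and lower in magn than in aly (-5.34, SE 0.56, adjusted p = 9.27e-07). CG13947 read 7.63, 7.69 and 7.73 in aly, at most 4.75 in sa and at most 2.78 in magn, at least 12.9-fold lower in magn than in aly. CG13946 read 5.80, 5.55 and 5.84 in aly, at most 4.78 in sa and at most 2.88 in magn. These 3 genes lie next to each other on chromosome arm 2L.

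CG17917 on 3R was above background among the mutants in aly only, with 5.99, 4.36 and 6.76 in aly and at most 2.30 in any sa or magn array, at least 3.25-fold higher in aly than in either. CG32712 on X read 6.01, 6.53 and 6.41 in aly, 4.74, 4.46 and 4.60 in sa, and 3.01 to 4.38 in magn, and it was called in both comparisons. CG1143 was higher in aly than in sa by at least 3.50-fold, with 5.96, 5.87 and 5.60 against 3.70, 3.38 and 3.78. CG42827 was lower in magn than in aly (log2 difference -2.69, SE 0.47, adjusted p = 1.42e-04, limma), with 5.57, 6.66 and 6.18 in aly and 2.83 to 4.15 in magn. Of 7 early germline markers tested, 4 were called lower and 1 higher, AGO3, in magn than in aly (all genes 33.3% and 25.8%). The part of early germline RNA in these differences was not tested.

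**Figure D3:**
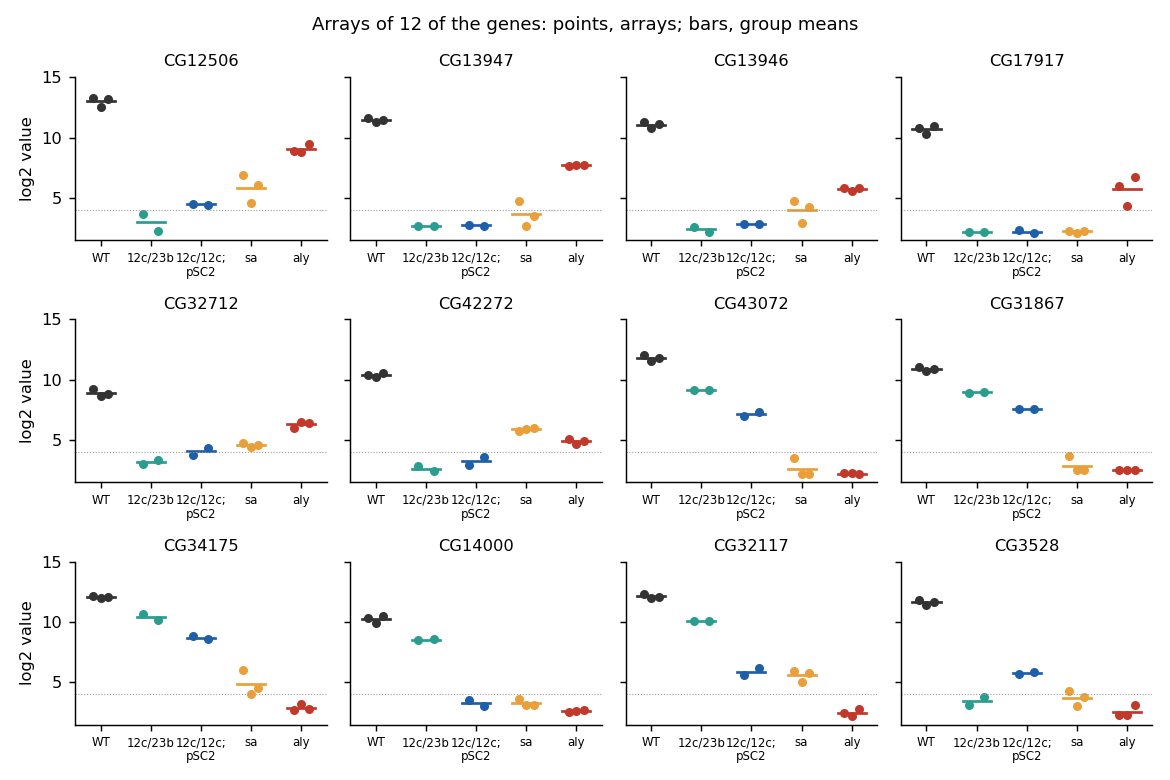
Log2 value of 12 of the genes in every array, by genotype, with a bar at each group mean and a dotted line at the background of 4. CG12506, CG13947, CG13946, CG17917 and CG32712 stand highest among the mutants in aly; CG42272 in sa; CG43072, CG31867 and CG34175 in magn; CG14000 and CG32117 in magn[12c]/magn[23b], and CG3528 is the gene called higher in magn[12c]/magn[12c];pSC2.

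The comparison of magn with sa depended on which magn flies were used. With all 4 magn arrays, 83 of the 206 genes were called, 70 higher and 13 lower in magn, with a median difference of 0.64. Of all tested genes 37.8% were called, 18.6% higher and 19.1% lower, with a median of -0.21, so the total share of 40.3% among the 206 was near that background. With the magn[12c]/magn[23b] arrays alone 129 were called higher than sa and 6 lower (all genes 20.7% and 23.2%), and with the magn[12c]/magn[12c];pSC2 arrays alone 36 were higher and 49 lower (all genes 16.8% and 16.7%). Their median differences from sa were 1.60 and -0.06. Against aly both combinations stood on the same side, with 167 genes called higher and 11 lower for magn[12c]/magn[23b] (all genes 25.6% and 35.6%). The pSC2 flies had 129 higher and 17 lower (all genes 25.8% and 30.7%).

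Some genes were higher than sa in all 4 magn arrays. CG43072 read 3.52, 2.19 and 2.23 in sa, 9.12 and 9.16 in magn[12c]/magn[23b], and 6.98 and 7.31 in magn[12c]/magn[12c];pSC2, at least 17.7-fold above sa (log2 difference 5.50, SE 0.52, adjusted p = 1.39e-06, limma). CG31867 was at 3.65, 2.49 and 2.49 in sa and between 7.59 and 9.01 in magn, at least 19.4-fold higher. For both genes sa was as low as aly and magn alone kept a level above background, without overlap. CG17195, of the DHHC family of palmitoyltransferases, was at least 8.29-fold higher in magn, with 5.95 to 8.22 against 2.52 to 3.05 in sa. CG34175, CG34181 and CG3748 had differences of 4.72, 4.07 and 4.03 on the log2 scale (adjusted p of 4.77e-06 to 6.92e-05, limma).

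Few genes were lower in magn than in sa. CG42272 read 5.75, 5.89 and 5.999 in sa, 5.10, 4.65 and 4.92 in aly, and 2.41 to 3.60 in magn, at least 3.68-fold lower in magn (log2 difference -2.94, SE 0.28, adjusted p = 1.40e-06, limma). CG10700 read 5.45, 5.87 and 6.10 in sa, 2.18 to 2.33 in aly and 2.33 to 3.46 in magn, at least 3.49-fold lower in magn. These 2 genes stayed above background in sa and fell to it in both magn combinations. CG14684, CG6497 and CG17777 were called lower with 4 magn arrays, but with magn[12c]/magn[23b] alone their differences from sa were -0.76, -0.94 and -0.92 and were not called. The difference of CG14684, -2.27, was also not called with only the compared groups in the fit. CG12506 was called lower than sa too, but its difference of -1.36 with the magn[12c]/magn[12c];pSC2 arrays alone was not called, nor was the -0.53 obtained with array weights.

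Within magn, the 2 allele combinations separated on most of the 206 genes. The median was 8.42 in magn[12c]/magn[23b] and 6.47 in magn[12c]/magn[12c];pSC2, and 158 genes were called, 157 lower and 1 higher in the pSC2 flies. Of all tested genes 10.1% were called, 7.94% lower and 2.13% higher. The median difference was -1.86 over the 206 genes and 0.10 over all genes. Among the other CG-number genes with a WT mean of at least 6, 9.98% were lower in the pSC2 flies. The share was 37.5% among the 413 of these genes that were low in aly and sa but not in magn. Among the 75 genes with other symbols that passed the thresholds it was 56.0%. Each combination had only 2 arrays, and the fit borrows its spread from all 13.

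That count can depend on the choice of genes, because the rule averaged both combinations. A fall of at least 2.5 was reached in both combinations by 135 genes, in magn[12c]/magn[12c];pSC2 alone by 69 and in magn[12c]/magn[23b] alone by 2. When genes were instead chosen with the magn[12c]/magn[23b] arrays as the only magn arrays, 140 passed and 92 of them, or 65.7%, were lower in the pSC2 flies. Among the 135 genes past the threshold in both combinations the share was 68.1%, but they lie within those 140, so the 2 shares are not separate checks. With the magn[12c]/magn[12c];pSC2 arrays as the only magn arrays, 299 passed and 240 of them, or 80.3%, were lower in the pSC2 flies.

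CG14000 showed the widest gap. It read 8.49 and 8.56 in magn[12c]/magn[23b], 3.57 and 3.03 in magn[12c]/magn[12c];pSC2, 3.63, 3.13 and 3.14 in sa, and 9.95 to 10.46 in WT, at least 23.0-fold lower in the pSC2 flies (log2 difference -5.23, SE 0.31, adjusted p = 1.02e-06, limma). Thus it kept a high level in only 1 of the mutant genotypes. CG32117 read 10.08 and 10.06 against 5.57 and 6.19 (log2 difference -4.19, SE 0.34, adjusted p = 2.07e-05, limma). CG14505 read 8.29 and 8.74 against 4.85 and 3.74 (-4.22, SE 0.38, adjusted p = 3.46e-05). CG30357 and CG32681 were at least 7.26-fold and 7.65-fold lower in the pSC2 flies. CG10588, of the insulin-degrading enzyme family of metalloproteases, read 5.93 and 6.03 against 2.34 and 2.33, at least 3.94-fold lower. The gene called higher was CG3528, with 3.09 and 3.77 against 5.72 and 5.85, at least 3.44-fold (adjusted p = 0.00254, limma).

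Other transcripts differed between these flies too. Of 16 accessory gland genes tested, 12 were called higher in the pSC2 flies and 0 lower (all genes 2.13% and 7.94%). Array medians of the list ran from 9.56 to 9.92 in magn[12c]/magn[23b] and from 12.74 to 13.29 in magn[12c]/magn[12c];pSC2. Among fat body genes, early germline genes and spermatocyte genes, 0 of 7, 0 of 7 and 1 of 18 were called higher in the pSC2 flies, and 0, 0 and 2 lower. The part of accessory gland RNA in the lower levels of the 206 genes was not tested. Ubi-p63E itself read 3.93 and 5.47 in magn[12c]/magn[23b], and in the pSC2 flies 3.88 and 3.59.

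**Figure D4:**
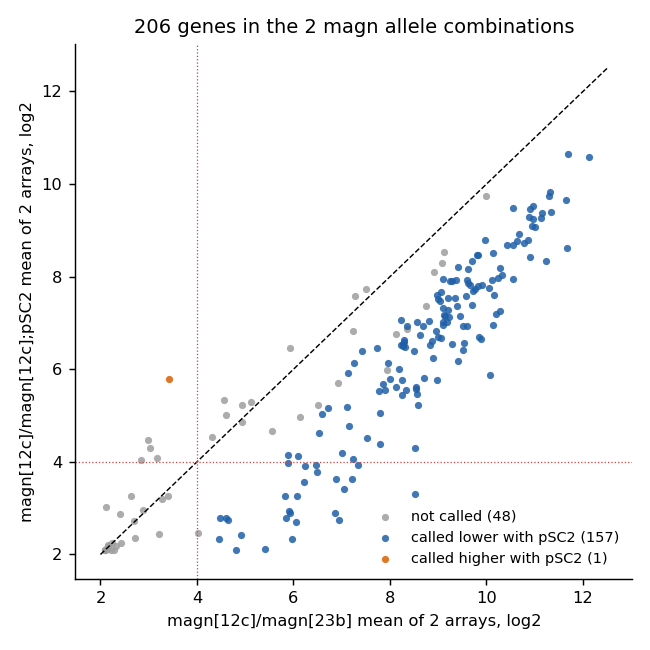
Mean log2 value of each of the 206 genes in the 2 magn[12c]/magn[12c];pSC2 arrays against the 2 magn[12c]/magn[23b] arrays, coloured by call, with dotted lines at the background of 4 and a dashed line of equality. Below the line lie 157 genes called lower in the pSC2 flies, and 1 gene called higher, CG3528, lies above it.

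Named genes of spermatids, the cells that form after meiosis, were set beside the 206. Of 51 such genes measured, which include sperm chromatin, axoneme and comet-shaped transcript genes, 2 passed the same thresholds, Prosalpha3T, a testis subunit of the proteasome, and t-cup. The list's median change was -5.91 in aly, -2.31 in sa and -0.53 in magn, where the 206 genes had -7.93, -4.62 and -3.73. The 206 were chosen for low values in all 3 mutants and the list was not, so the gap between them follows from the rule and nothing is read from it. In magn 19 of the 50 list genes tested were called lower than WT and 0 higher, where the shares of all genes were 14.3% and 29.2%. Single genes of the list differed. The sperm chromatin gene Mst77F had a mean of 15.06 in magn against 15.03 in WT, the don juan gene dj 10.51 against 9.63, and Dhc36C 7.09 against 10.78. Of the 50 list genes tested, 11 were lower in the pSC2 flies than in magn[12c]/magn[23b] and 0 were higher (all genes 7.94% and 2.13%).

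Among genes whose protein family is known, several enzymes of energy metabolism were found; these were picked out after the values were seen and were not tested as a group. CG7069, a relative of pyruvate kinase, read 11.92, 12.36 and 12.73 in WT and kept 7.80 to 9.97 in all mutant arrays. CG13334, related to lactate dehydrogenase, read 8.51 to 8.79 in WT and lay at or below 3.60 in aly and sa, with 4.42 and 4.50 in magn[12c]/magn[23b] and 2.34 in both pSC2 arrays. CG3544, a xylulokinase, fell from 11.52 ± 0.21 (SD, n = 3) to 2.48 ± 0.13 in aly, with 3.61 ± 0.83 in sa and 6.42 ± 1.62 in magn (n = 4). So these enzymes ranged from partly kept to background in the same mutants. CG7514, of the mitochondrial carrier family, was near background in aly (2.81 to 3.81) and stood at 9.20 to 9.67 in sa.

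Other genes with a known protein family, also picked out after the values were seen and not tested as a group, differed in how much each mutant kept. CG10834, a roadblock-type dynein light chain, read 3.15 to 3.35 in aly, 7.94 to 8.82 in sa, 10.19 and 10.36 in magn[12c]/magn[23b], and 7.20 and 7.31 in the pSC2 flies, below 12.70 to 13.13 in WT. CG17198, a second DHHC palmitoyltransferase, kept 7.68 to 8.70 in sa, whereas CG17195 was at background there. CG2104, related to the phosphatase activator PTPA, had means of 2.93 in aly, 4.46 in sa and 5.59 in magn. CG31115, of the methylthioadenosine phosphorylase family, had overlapping arrays in aly, at 6.53, 6.59 and 6.94, and in sa, at 7.11, 6.03 and 7.46.

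A further 4 genes picked out in the same way ranged from the floor to well above background in the mutants. CG6435, of the invertebrate lysozyme family, read 7.86, 6.83 and 8.03 in WT, lay at the floor of 2.102 in every aly and sa array, and read 4.94 and 4.68 in magn[12c]/magn[23b] and at most 2.11 in the pSC2 flies. CG32301, an adenylyl cyclase, fell from 8.97 ± 0.32 to 2.67 ± 0.19 in aly and kept 4.92 ± 0.61 in sa (SD, n = 3 each). CG11374, a galectin, was near background in aly and sa and stood at 5.08 to 6.78 in magn. CG3795, a serine protease, was among the genes above background in every mutant array, at 6.26 to 8.82.

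Neighbouring genes were more frequent among the 206 than in the reference sets, as a description without a test. In the order of RefSeq genes, 11 runs of adjacent genes of the set held 25 of them, and 13.7% of the set lay next to a gene past the thresholds, against 4.70% of the other CG-number genes with a WT mean of at least 6 and 9.80% of the 413. The longest run, on 2L, held CG32987, CG32988, CG32983 and CG9483. Its members differed: CG32983 and CG32987 were at background in aly, in sa and in the pSC2 flies and read 4.12 to 5.71 in magn[12c]/magn[23b], whereas CG9483 kept 6.35 to 7.18 in sa and 7.84 to 9.66 in magn. CG14262 and CG14260 on 3R, adjacent too, had means of 7.29 and 4.32 in sa. CG12289 and CG7551 on 3L had similar means in aly, 3.47 and 3.45, and in magn, 8.02 and 7.75, but differed in sa, at 7.52 and 5.64.

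The genes were often short and seldom X-linked, as a description without a test. RefSeq rows were found for 205 of them, all under the same symbol, and CG43173 had no row. The X chromosome carried 6.34%, against 17.1% of the other CG-number genes with that WT mean and 5.39% of the 413. The median gene span was 1070 bases, against 1733 and 1342, and 44.9% spanned under 1000 bases, against 21.2% and 32.6%. These shares describe the sets. Both comparison sets share the naming of the genes and the minimum WT mean of 6. They were not matched to the genes on WT level above that minimum, so the shares are not adjusted for it.

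Further probe sets gave a separate reading of 11 genes. Of 13 such probe sets, 4 showed all 3 falls of at least 2.5, in CG13675, CG15059, CG17944 and CG43691. For CG17944 the second probe set had means of 12.34 in WT, 2.24 in aly, 8.07 in sa and 9.36 in magn, near the 13.25, 2.40, 9.06 and 10.20 of the chosen one. The other 9 did not show the falls. Of these, 8 had a WT mean under 4, so that no fall could be seen, for CG10947, CG12814, CG13679, CG15059, CG33233, CG42272 and CG42841. The exception was CG2082, of the Ndr family, whose second probe set read 6.77 in WT and 6.63 in aly, 5.79 in sa and 6.20 in magn, while the chosen one read 10.80, 7.62, 6.33 and 8.25.

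The WT level itself was steady for most of the genes. The range over the 3 WT arrays had a median of 0.45 log2 units and reached 1 or more in 17 genes, a set picked out after the values were seen. WT replicate 2 was the lowest array in 11 of these, for example CG3397, an aldo-keto reductase, at 9.17, 8.04 and 9.14, and CG6154, a dipeptidase, at 7.09, 5.88 and 6.42. It was the highest in the other 6, among them CG15021, given above, CG18368 at 9.09, 10.92 and 10.33, and CG30484 at 4.11, 7.39 and 7.10. Without WT replicate 2 the rule would find 218 genes. WT replicate 2 also had the highest accessory gland median, 13.90 against 11.05 and 10.28 in replicates 1 and 3, and the lowest fat body median, 8.91 against 9.93 and 9.59. Its medians were highest too for the seminal fluid list, 10.51 against 7.68 and 6.79, and for sheath muscle, 9.12 against 8.16 and 7.50. The part of such RNA in the WT values of the 17 genes was not tested.

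**Figure D5:**
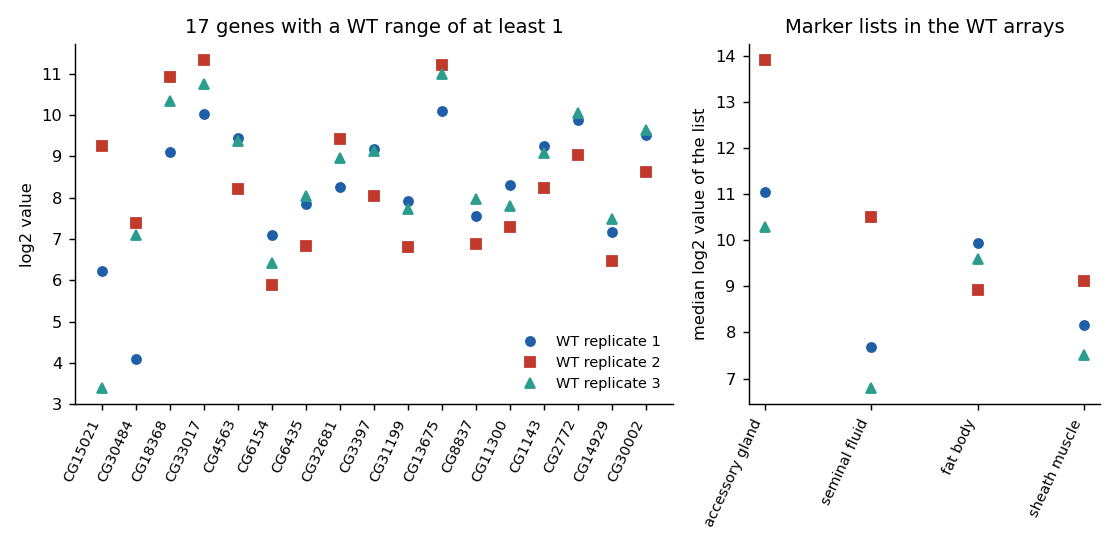
Left, log2 value in the 3 WT arrays (symbols) of the 17 genes whose WT range is at least 1; right, the median log2 value of 4 marker lists in the same arrays. WT replicate 2 is lowest for 11 of the 17 genes and highest for 6. Its medians are highest for accessory gland, at 13.90, seminal fluid and sheath muscle, and lowest for fat body.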

How the data were processed

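Total RNA was amplified and biotin-labelled with a 3' IVT kit, per the labels. The authors deposited log2 values per probe set, made with GCRMA per the submitters' processing notes; its version and the genome build are not given in the sources used here. GCRMA puts absent transcripts near a common floor, so differences at the floor carry no size, and the 13 arrays limit precision. Of 18952 probe sets, 13647 pair with exactly 1 gene symbol and 402 with several, which were left out. Gene order, chromosomes and spans came from RefSeq's table for Release 6 plus ISO1 MT.

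The 206 genes, the lists and the tests were chosen with earlier results of these data known. Genes with a log2 value above 4 in at least 3 arrays (8719) were fitted with limma 3.58.1 in R 4.3.3 (lmFit, eBayes with trend) and Benjamini-Hochberg adjustment over all of them, with 4 groups, or 5 for the magn combinations. Calls need adjusted p under 0.05 and 2-fold. A group with no array above 4 gives a fold only as a bound, computed against 4. Alternatives covered the filter, scaling, floor, fold minimum, variance, probe set, magn grouping, replicate block and leaving out arrays. Steps were tested on simulated data. Promoter motifs were not searched. Named genes are those highest in WT, deepest in fall, nearest the thresholds, most different between mutants without overlap, adjacent, or with discordant probe sets; others are said to be picked later. Of 23 same-numbered array pairs, 7 correlated above 0.1 (range -0.27 to 0.24), so arrays were not paired. Figures were drawn with matplotlib 3.10.9 in Python 3.11.15.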

Additional observations from a re-analysis of the deposited data

Results flagged for a closer look

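CG18641, which encodes a protein of the lipase family, had 1 magn array apart from the other 3. The magn[12c]/magn[23b] arrays read 7.19 and 7.82 and the magn[12c]/magn[12c];pSC2 arrays 7.72 and 7.74, so the value of 7.19 lay beyond Dixon's 95% critical value for 4 arrays. The 4 arrays come from 2 allele combinations that differ on most of the genes, and the critical value assumes arrays of 1 kind, so the usual chance share of 5% does not hold here. It was the only such case among 185 genes of the set with a magn array above background. CG18641 was not called different between the combinations.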

How the results depend on the processing

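Centring arrays on 26 ribosomal protein genes lowered every change against WT (by 1.31 in aly, 1.36 in sa and 1.01 in magn on the log2 scale), so 468 genes, the 206 included, passed the rule; 135 passed with both magn combinations required. Leaving out 1 array gave 183 to 235. With a 4-fold minimum, 4 genes were higher in aly than in sa, 6 lower in magn than in aly, 44 called between magn and sa (37 higher, 7 lower), and 87 between the magn combinations (86 lower). Quantile normalization gave 17 genes higher in aly than in sa. With 5 groups in the fit, and magn as the mean of its 2 combinations, there were 145 calls for aly and sa. The same fit gave 173 for magn and aly and 100 for magn and sa. The 13 genes lower in magn than in sa were the least stable count: 8 with ribosomal protein centring, 8 with only the compared groups in the fit, 26 with array weights, and 20 and 23 without replicates 1 and 2 of magn[12c]/magn[23b]. That comparison gave 135 calls with magn[12c]/magn[23b] alone (129 higher, 6 lower), and 36 higher and 49 lower with the pSC2 arrays alone, alternatives chosen after seeing the data. Between the combinations, 3 genes were higher in the pSC2 flies with only those groups fitted. The cause of these shifts was not tested. Leaving out 1 array gave 125 to 128 calls for aly and sa (7 to 11 higher, 114 to 121 lower), 153 to 172 for magn and aly (141 to 161 higher, 11 to 15 lower), 66 to 97 for magn and sa (53 to 86 higher, 9 to 23 lower), and 122 to 145 for the combinations (121 to 144 lower). A replicate block, although the numbers do not pair the arrays, gave 130, 160, 70 and 154 calls. Of 43 comparisons of named genes, none reversed; 819 of 825 alternative values kept their call. Signals near background limit every fold from a group at or below 4.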
